A study of Homo sapiens with 6 samples.

Results

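The genes described here encode the proteasome, and they were followed in HEK293 cells with and without a heat shock. They are the genes named PSMA, PSMB, PSMC, PSMD, PSME, PSMF or PSMG followed by a number in the deposited table of merged loci, with pseudogene and antisense names left out. The rule found 48 of the 24166 genes that had a value, and it left out PSMC3IP, PSMD6-AS2 and PSMG3-AS1. The rule uses names alone and no measured value. HEK293 is a human embryonic kidney line grown as 1 established line. All cells were grown at 37°C in serum-containing medium. The 3 heat shock samples were cells held in a tube in a 45°C water bath for 30 minutes, and the 3 control samples were left untreated. Total RNA was depleted of ribosomal RNA, and each sample gave 1 library. The labels do not say whether the 3 samples of a group were separate cultures, so the p-values measure the spread between these samples, which may be technical. Sample labels give the time in the bath only, and the study's text places the collection after the shock.

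The proteasome degrades proteins that carry ubiquitin, and cells under heat stress hold more misfolded protein that may be sent to it. Its core particle, the 20S, is a barrel in which rings of alpha subunits gate the entry and rings of beta subunits hold the proteolytic sites. The regulatory particle, the 19S, caps the barrel. Its base holds a ring of ATPases that unfold and thread the substrate, and its lid removes the ubiquitin chain. Dedicated chaperones assemble the rings and the base, other activators can replace the 19S cap, and an interferon-induced set of catalytic subunits makes the immunoproteasome. Heat shock factor binds repeats of the letters GAA in the promoters of chaperone genes. The factor NFE2L1 raises proteasome genes together when proteasome activity falls, through antioxidant response elements.

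Promoters of 42 of the 48 genes were found in RefSeq (build GRCh38.p14), each as a window from 250 bases before to 50 bases after the start. A heat shock element of 3 units (GAA, TTC and GAA in a row, or TTC, GAA and TTC, with any 2 letters between units, on both strands) was in 0 of the 42 windows. It was in 0.487% of all 27305 promoter windows of the same length and in 3 of 12 heat shock genes, DNAJA1, HSPA6 and HSPA8. The core of the antioxidant response element, searched on both strands as TGACNNNGC or GCNNNGTCA, was in 13 of the 42 windows (31.0%) and in 13.6% of all windows. The 13 genes were PSMB3, PSMB9, PSMC4, PSMD1, PSMD3, PSMD5, PSMD9, PSMD12, PSME1, PSME2, PSME4, PSMG1 and PSMG2. The 250 bases before the start are printed below for 3 proteasome genes and for HSPA8, each read 5′ to 3′ on the strand of the gene, with matches in capitals. These genes were picked by their values summed over transcripts, described below. PSMB3 was the proteasome gene at the highest level and held 1 antioxidant match, and PSMB4 was the steadiest by that sum and held neither motif. PSMD9 had the widest spread between libraries by that sum after the low gene PSMB11 and held 2 antioxidant matches. HSPA8, a chaperone gene shown for contrast, held 2 heat shock elements. A match is a description of the letters and no evidence of binding.
PSMB3 (chr17:38752491-38752740, + strand): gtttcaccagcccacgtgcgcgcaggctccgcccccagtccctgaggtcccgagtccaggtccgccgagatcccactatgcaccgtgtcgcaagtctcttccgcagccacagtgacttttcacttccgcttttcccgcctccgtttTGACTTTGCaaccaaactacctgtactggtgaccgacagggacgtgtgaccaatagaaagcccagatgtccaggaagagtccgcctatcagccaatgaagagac
PSMB4 (chr1:151399323-151399572, + strand): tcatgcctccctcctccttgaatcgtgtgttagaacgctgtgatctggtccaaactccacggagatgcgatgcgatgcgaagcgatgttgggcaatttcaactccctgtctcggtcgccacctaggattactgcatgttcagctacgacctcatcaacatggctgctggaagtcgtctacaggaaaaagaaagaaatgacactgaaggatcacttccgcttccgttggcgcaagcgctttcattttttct
PSMD9 (chr12:121888540-121888789, + strand): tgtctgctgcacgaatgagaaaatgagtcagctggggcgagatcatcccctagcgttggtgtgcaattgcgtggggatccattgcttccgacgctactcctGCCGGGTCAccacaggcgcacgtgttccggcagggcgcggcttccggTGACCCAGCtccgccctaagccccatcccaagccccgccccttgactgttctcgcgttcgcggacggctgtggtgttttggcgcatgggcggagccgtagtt
HSPA8 (chr11:123062137-123062386, - strand): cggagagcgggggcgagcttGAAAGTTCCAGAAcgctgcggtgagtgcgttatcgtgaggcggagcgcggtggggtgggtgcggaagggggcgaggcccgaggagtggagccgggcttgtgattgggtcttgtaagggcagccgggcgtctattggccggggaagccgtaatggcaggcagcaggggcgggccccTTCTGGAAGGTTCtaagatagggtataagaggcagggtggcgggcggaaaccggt

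The measurement was FPKM, fragments scaled by transcript length and by the mapped fragments of the library, as the authors' Cufflinks assemblies list it for each transcript. The value of a gene is the sum over its annotated transcripts and the transcripts that were assembled with them. The files hold no read counts, and the depth of the libraries, taken from the ratio of coverage to FPKM, spanned 1 to 2.03 relative to the shallowest. Control 2 and heat shock 3 stood apart. A common factor, computed as a size factor by the median of ratios from the 983 genes above 10 FPKM in every library, describes how high the abundant genes of each library were listed. It was 0.938, 0.434 and 0.957 for controls 1, 2 and 3 and 2.13, 2.32 and 0.487 for heat shock 1, 2 and 3, so that heat shock 3 lay with control 2 and not with the other heat shock libraries. The same 2 libraries listed the most single-exon transcripts without a strand, 194489 and 151889 against 17304 to 141632 in the other 4. Each comparison is therefore given as deposited and relative to the common factor, and where it matters without these 2 libraries. Division by the factor removes any change that most abundant genes share, and in bulk RNA fewer cells of a type cannot be told apart from less RNA per cell. Dividing moved the median log2 difference over all tested genes from 0.449 to -0.245. As a check of the heat shock label, all 11 tested heat shock genes were higher relative to the factor at any size, beside 26.3% of all tested genes. Their log2 differences ran from 0.036 to 2.51, with a median of 0.349. At an unadjusted p under 0.05, 5 of the 11 were higher, beside 0.678% of all genes, and 0 of the 11 genes were called (limma, Benjamini-Hochberg adjustment). DNAJB1, a co-chaperone of HSP70, led them at 9.52 ± 1.67 in controls and 58.9 ± 9.99 after heat shock (SD, n = 3 each). Its log2 difference of 2.51 (adjusted p = 0.1402, limma with Benjamini-Hochberg adjustment) did not pass the threshold of 0.05. HSPA6, also on this list of 12, was under the minimum and not tested. Its FPKM were 0.311, 0.425 and 0.277 in the control libraries and 0.307, 0.337 and 0.71 in the heat shock libraries, which overlapped. Of the 8 HEK293 markers, VIM was high in every library while PAX2 and LHX1 were low or near 0. As deposited, KRT18 ran from 7.86 to 34.5 FPKM over the libraries and KRT8 from 1.77 to 16.6. On the same scale NEFL ran from 2.45 to 12.96, NEFM from 1.44 to 8.92 and INA from 2.35 to 7.80. Of 7 markers of other cell types, PTPRC, COL3A1 and ALB stayed below 1 relative to the factor in every library. The other 4 did not, with COL1A1 of fibroblasts at 1.396 to 7.97, CD74 of leukocytes at 0 to 12.8, and VWF and PECAM1 of endothelium at 0.0333 to 4.24 and 0.117 to 2.01. The summed relative level of all 7 ran from 5.10 to 19.3 in the controls and from 1.94 to 24.1 after heat shock, highest in control 2 and heat shock 3. These 2 libraries also had the lowest common factors, and division by a low factor raises a level. As deposited, COL1A1 ran from 3.23 to 4.16 FPKM over all libraries and VWF was highest in control 3 at 2.60. CD74 was highest in heat shock 3 at 6.25 on that scale too.

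On the deposited scale the proteasome genes followed the common factor. Of the 48 genes, 43 had a mean of at least 1 FPKM and were tested, and PSMA8, PSMB8, PSMB9, PSMB11 and PSMD5 were below it. None of the 43 passed an adjusted p under 0.05 in either direction (limma, Benjamini-Hochberg adjustment), where 0.0154% of all 13025 tested genes were called higher and 0.00768% lower. At an unadjusted p under 0.05 there were again 0 of 43, beside 2.07% higher and 1.61% lower over all genes. Leaving out heat shock 3 alone moved this count to 34 of 43 higher and 0 lower, beside 40.5% and 8.5% of 12874 genes, while 0 of 43 passed the adjusted threshold, beside 0.109% called higher and 0.0155% lower (limma, Benjamini-Hochberg adjustment). The median log2 difference of the 43 was 0.811 against 0.449 over all tested genes, and 39 of the 43 (90.7%) were higher after heat shock at any size, against 73% of all. That distance goes with level: with a minimum mean of 10 FPKM the medians were 0.824 for 37 proteasome genes and 0.819 for all 2917. Heat shock 1 and 2 lay above the controls for most of these genes, and heat shock 3 lay near control 2. With control 2 and heat shock 3 left out, a choice made after the values were seen, 25 of 43 were called, all higher, and the median was 1.14. Beside them, 16.1% of 12583 genes were called higher and 2.1% lower, a share not matched for level. The common factors of the libraries kept were 0.938 and 0.957 for the controls and 2.13 and 2.32 after heat shock. This count therefore holds the difference in the factor, and relative to the factor the same libraries gave 0 of 43 called (limma, Benjamini-Hochberg adjustment). PSMD14 was the only proteasome gene whose 3 heat shock libraries all lay above its controls on this scale, where 3.71% of all genes did so. Its FPKM were 14.3, 6.54 and 12.2 in the control libraries and 32.8, 34.9 and 29.9 in the heat shock libraries.

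**Figure D1:**
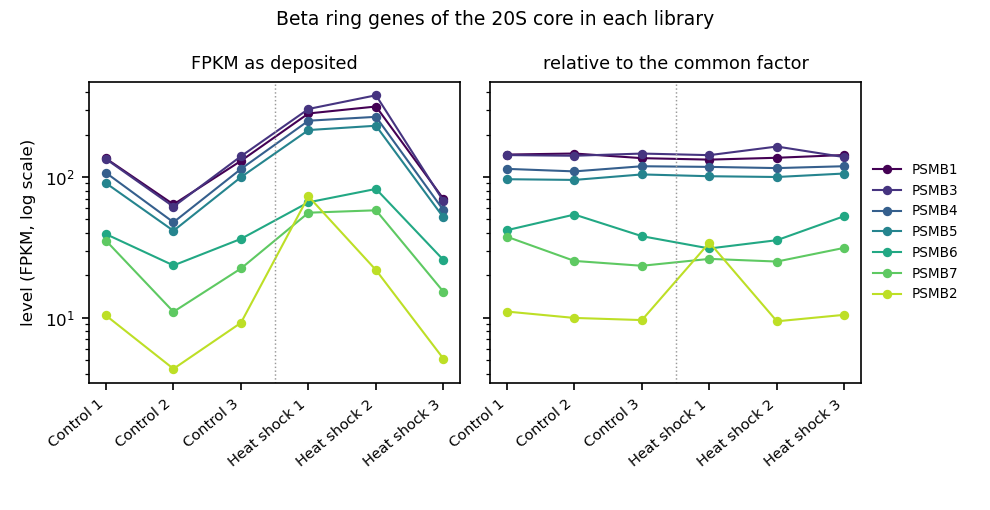
FPKM of the 7 beta ring genes (vertical axis, log scale) in the 3 control and 3 heat shock libraries, as deposited on the left and divided by the common factor of the library on the right. Lines join the values of 1 gene and carry no order. On the left all genes dip in control 2 and heat shock 3, and on the right PSMB1, PSMB3, PSMB4 and PSMB5 are nearly level while PSMB2 is high in heat shock 1 alone.

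Relative to the common factor, 44 proteasome genes were tested and PSMA8, PSMB8, PSMB9 and PSMD5 were under the minimum. None passed an adjusted p under 0.05 (limma, Benjamini-Hochberg adjustment), and the share called over all 13860 tested genes was 0% in both directions. At an unadjusted p under 0.05, 0 of 44 were higher and 2 of 44 lower (PSMA5 and PSMD2, 4.55%), beside 0.678% and 2.47% of all genes. The 3 heat shock libraries lay below the 3 controls for 4 genes, PSMA5, PSMC2, PSMD1 and PSMD3 (9.09%), beside 5.25% of all genes, and above them for 0 of 44, beside 1.8%. The median log2 difference of the 44 was -0.043 against -0.245 over all genes, and 15 of the 44 (34.1%) were above 0 at any size, against 26.3% of all genes. With a minimum mean of 10 FPKM the medians lay close together, at -0.028 for 37 proteasome genes and -0.025 for all 2618. The 95% interval of the difference lay within 2-fold in either direction for 30 of the 44 (68.2%), against 29.2% of all tested genes. That share was not matched for level: 37 of the 44 reached a mean of 10 FPKM, but only 2618 of the 13860 genes did. The levels were also steadier than those of most genes: the median SD over the 6 libraries was 0.205 on the log2 scale for the 44 genes and 0.584 over all tested genes. Much of that distance goes with level, since among genes above 10 FPKM in every library the medians were 0.148 for 21 proteasome genes and 0.185 for all 983. Those 21 genes also entered the common factor, and leaving the proteasome genes out of it gave 0 called and a median of -0.043. Without control 2 and heat shock 3, 0 of 43 were called (limma, Benjamini-Hochberg adjustment, 0% of all genes), and at an unadjusted p under 0.05 0 were higher and 1 lower (PSMD2), beside 1.47% and 18% of all genes.

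**Figure D2:**
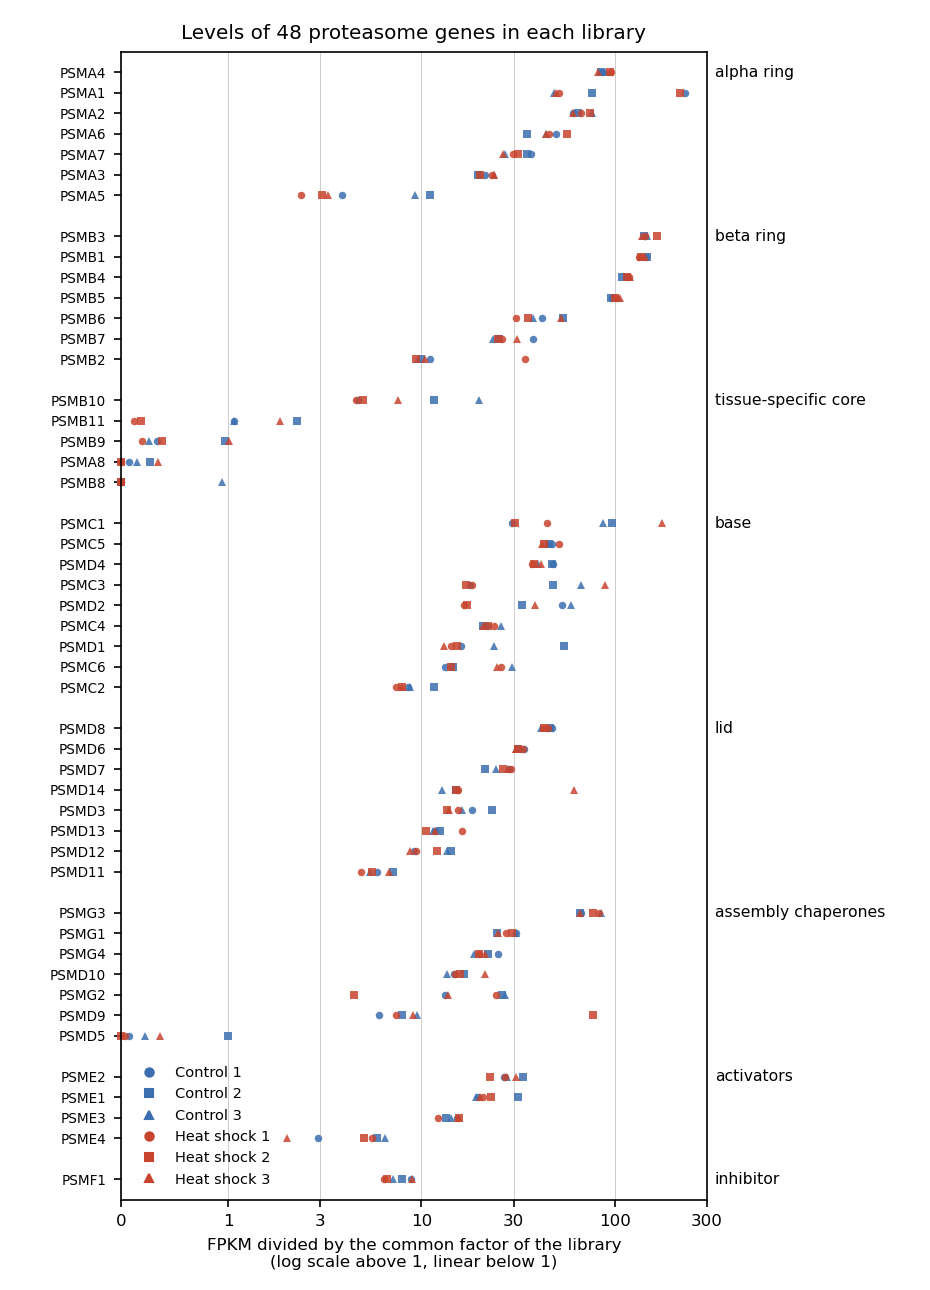
FPKM divided by the common factor of the library (horizontal axis, log scale above 1) for the 48 proteasome genes, grouped by role and ordered by mean level, with 1 point for each of the 6 libraries. The beta ring genes PSMB3, PSMB1, PSMB4 and PSMB5 form tight groups of points between 95.4 and 165, whereas PSMC1, PSMC3, PSMA1 and PSMD9 are spread widely.

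The order of the levels was led by the beta ring. In levels relative to the common factor, ordered by the mean of their log2 values, the 4 highest genes were PSMB3 at a mean of 146 over the 6 libraries (138.6 to 165), PSMB1 at 140.3 (133 to 147), PSMB4 at 116 (109.7 to 119) and PSMB5 at 101 (95.4 to 106). PSMA1, the sixth in this order, had a plain mean of 113 above that of PSMB5, with libraries from 48.4 to 231. Of the 47 neighbouring pairs in the order of all 48 genes, 7 were apart by more than their pooled SD, and the libraries of 3 pairs did not overlap: PSMB1 with PSMB4, PSMB4 with PSMB5 and PSMB5 with PSMA4. The remaining order, from PSMA4 downwards, is within the spread of most neighbours. The lowest genes were PSMB9, PSMD5, PSMA8 and PSMB8, each at 1.01 or less in every library. The same order held in all libraries to a Spearman rho of 0.848 to 0.946 between any pair over the 48 genes, which share their annotation and transcript lengths.

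The alpha ring lets substrates in. PSMA4, its highest gene by mean log2 level, had relative levels of 85.9, 85.2 and 90.5 in controls 1, 2 and 3 and 95.2, 94.9 and 81.7 in heat shock 1, 2 and 3. PSMA7, another constitutive ring member, had 37.02, 35.2 and 27.2 in the control libraries and 29.9, 31.5 and 26.6 in the heat shock libraries. The libraries of the groups overlapped for both genes, and their log2 differences were 0.052 (95% interval -0.20 to 0.30) and -0.16 (-0.56 to 0.24). PSMA8, the testis counterpart of an alpha subunit, had 0.0757, 0.274 and 0.151 in the control libraries and 0, 0 and 0.349 in the heat shock libraries and stayed below 0.5 everywhere. PSMA5, the lowest constitutive gene of the ring, had 3.89, 11.1 and 9.301 in the control libraries and 2.39, 3.05 and 3.28 in the heat shock libraries. All 3 heat shock libraries lay below the controls, closest to control 1, and the log2 difference was -1.12 (-2.08 to -0.17, unadjusted p = 0.0278, adjusted p = 0.9104, limma with Benjamini-Hochberg adjustment). Across the 7 constitutive genes, 4 differences were above 0 and 3 below, with a median of 0.0030.

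The level of PSMA5 moved with the transcripts that were assembled. Cufflinks assembled shorter transcripts of this gene in controls 2 and 3, the leading ones 718 and 787 bases long against 3826 for the annotated transcript, and they held 87.3% and 85.8% of its FPKM. Control 1 and heat shock 1 and 2 listed the annotated transcript alone. A short transcript gives more FPKM for the same fragments. Weighting each FPKM by transcript length, an alternative chosen after the values were seen, gave relative levels of 3.86, 4.21 and 3.04 in the control libraries and 2.41, 3.08 and 3.26 in the heat shock libraries. These overlapped, and the log2 difference was -0.26 (-0.71 to 0.18).

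The beta ring was the steadiest group. The summed relative level of its 7 constitutive genes lay between 578 and 602 in all 6 libraries, 578 to 589 over the control libraries and 587 to 602 over the heat shock libraries. PSMB4, a non-catalytic subunit with the narrowest range of all by the plain sum, had 114, 109.7 and 119 in the control libraries and 118, 116 and 119 in the heat shock libraries. PSMB3, also non-catalytic, had 143, 142 and 147 in the control libraries and 143, 165 and 139 in the heat shock libraries, and PSMB1 had 145, 147 and 136 in the control libraries and 133, 137 and 144 in the heat shock libraries. None of these 3 genes separated the groups, and their 95% intervals of -0.16 to 0.24, -0.19 to 0.28 and -0.25 to 0.15 on the log2 scale all lay within 2-fold. PSMB2 was the lowest of the ring, with 11.04, 9.95 and 9.603 in the control libraries and 34.2, 9.41 and 10.5 in the heat shock libraries. Heat shock 1 was the 1 high library, and there a transcript of 438 bases carried 77.5% of the FPKM against an annotated length of 4743. Weighted by length, PSMB2 ran from 9.99 to 11.5 in all 6 libraries. By that measure the narrowest range was that of PSMB5, at 1.08-fold, against 1.11-fold for PSMB4.

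The 3 catalytic subunits stood at different levels. PSMB5, which cuts after hydrophobic residues, had relative levels of 96.5, 95.4 and 104 in the control libraries and 101, 100.1 and 106 in the heat shock libraries. PSMB6, which cuts after acidic residues, had 41.9, 54.1 and 37.96 in the control libraries and 31.03, 35.6 and 52.8 in the heat shock libraries. PSMB7, which cuts after basic residues, had 37.6, 25.3 and 23.4 in the control libraries and 26.2, 25.1 and 31.4 in the heat shock libraries. Every library listed PSMB5 above PSMB6, with no overlap between them, and PSMB6 was above PSMB7 within each library. The groups overlapped for all 3, with log2 differences of 0.053 (-0.16 to 0.27), -0.18 (-0.77 to 0.41) and -0.037 (-0.57 to 0.49).

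Of the counterparts that replace these subunits in the immunoproteasome, PSMB8 and PSMB9 were near the floor, and PSMB10 was higher, at a mean of 8.87. PSMB8, which takes the place of PSMB5, was listed at 0 in 5 libraries and at 0.943 in control 3. In 3 libraries (controls 1 and 2 and heat shock 3) its transcripts were grouped with those of the neighbour TAP1, and 2 or 3 assembled transcripts there, with 1.08 to 2.03 FPKM in sum, were counted to neither gene. PSMB9, which replaces PSMB6, had 0.334, 0.968 and 0.266 in the control libraries and 0.194, 0.379 and 1.01 in the heat shock libraries. PSMB10, which replaces PSMB7, had 4.69, 11.6 and 19.9 in the control libraries and 4.598, 4.99 and 7.53 in the heat shock libraries. Relative to the factor, PSMB9 was highest in control 2 and heat shock 3, the libraries with the lowest factors and the most strandless transcripts. As deposited, PSMB9 was highest in heat shock 2, at 0.879 FPKM against 0.421 in control 2 and 0.49 in heat shock 3. Control 2 and heat shock 3 also had the highest summed relative levels of other cell types' markers, whose part in these values was not tested. PSMB10 overlapped between the groups (log2 difference -0.79, -2.02 to 0.43). In controls 2 and 3 and heat shock 3 all of its FPKM came from assembled transcripts, in control 3 from a single transcript of 412 bases. In the merged table PSMB10 shares its locus with 1 other gene. PSMB11, the thymus counterpart of PSMB5, had 1.07, 2.26 and 1.07 in the control libraries and 0.121, 0.1897 and 1.84 in the heat shock libraries, and it too was highest in control 2 and heat shock 3. Its FPKM as deposited were 1.003, 0.982 and 1.02 in the control libraries and 0.259, 0.439 and 0.898 in the heat shock libraries, so the heat shock libraries lay below the controls on that scale and overlapped on the other.

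**Figure D3:**
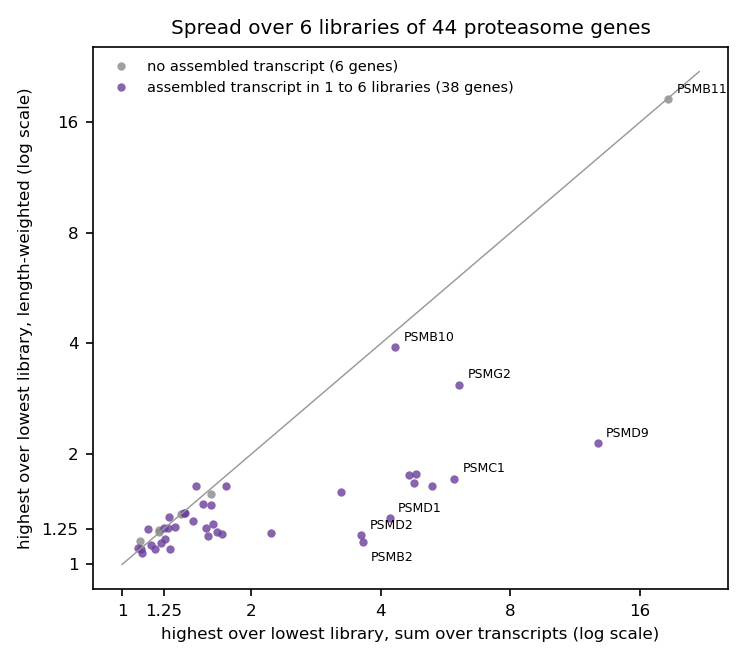
Highest over lowest library of each of 44 tested proteasome genes, for the plain sum of FPKM over transcripts (horizontal axis, log scale) and for FPKM weighted by transcript length (vertical axis, log scale), both relative to the common factor. Grey points are the 6 genes with annotated transcripts alone, purple points the 38 with an assembled transcript in at least 1 library, and the line marks equal spread. PSMD9, PSMC1 and PSMB2 fall far below the line, and PSMB11 and PSMB10 stay near it.

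In the base of the 19S, wide ranges went with short assembled transcripts. PSMC1, an ATPase and the highest base gene by mean, had relative levels of 29.5, 96.6 and 86.6 in the control libraries and 44.6, 30.4 and 175 in the heat shock libraries. Control 2, control 3 and heat shock 3 were high, and in each a short assembled transcript (572, 548 and 369 bases, annotated 1586) held 90.7%, 90.95% and 93.01% of the FPKM. PSMC3, another ATPase, had 17.9, 48.1 and 67.4 in the control libraries and 18.2, 16.98 and 89.2 in the heat shock libraries, with the same 3 libraries high and the same kind of transcript in each. PSMC2, the lowest ATPase gene, had 8.52, 11.7 and 8.699 in the control libraries and 7.37, 7.94 and 7.93 in the heat shock libraries. Its heat shock libraries all lay below its controls, by a log2 difference of -0.27 (-0.74 to 0.20, unadjusted p = 0.213, adjusted p = 0.9104, limma with Benjamini-Hochberg adjustment). PSMC4 and PSMC5, the remaining ATPase genes with narrow ranges, ran from 20.9 to 25.7 and from 42.1 to 51.2 over all libraries.

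PSMD1 and PSMD2 are the large scaffolds of the base, and both were lower after heat shock at any size. PSMD2, which docks ubiquitin receptors, had relative levels of 53.4, 33.3 and 59.5 in the control libraries and 16.5, 17.3 and 38.8 in the heat shock libraries. Heat shock 1 and 2 were the low libraries, and heat shock 3 lay above control 2 and below controls 1 and 3. The log2 difference was -1.05 (-2.01 to -0.095, unadjusted p = 0.0361, adjusted p = 0.9104, limma with Benjamini-Hochberg adjustment). The 4 libraries above 30 were those in which assembled transcripts held 86.2% to 100% of the FPKM, while heat shock 1 and 2 listed the annotated transcript alone. Weighted by length, PSMD2 had 19.7, 19.3 and 19.4 in the control libraries and 16.4, 17.2 and 19.4 in the heat shock libraries, a log2 difference of -0.13 (-0.36 to 0.093), and heat shock 3 fell within the controls. PSMD1 had 15.96, 54.99 and 23.7 in the control libraries and 14.2, 15.3 and 13.1 in the heat shock libraries. Control 2 was the 1 far value, with 89.9% of the FPKM from assembled transcripts, and weighted by length PSMD1 had 16.02, 17.6 and 15.7 in the control libraries and 14.5, 15.4 and 13.2 in the heat shock libraries. The groups did not overlap by either measure, and the log2 difference moved from -0.92 (-1.99 to 0.15) to -0.19 (-0.43 to 0.063). PSMD4, a ubiquitin receptor, had 47.96, 47.4 and 40.3 in the control libraries and 37.5, 38.3 and 41.7 in the heat shock libraries, and its groups overlapped. Of the 9 base genes, 1 difference was above 0 and 8 were below, with a median of -0.199.

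The lid opens with PSMD14, the metalloprotease that removes ubiquitin chains. Its relative levels were 15.2, 15.1 and 12.7 in the control libraries and 15.4, 15.1 and 61.4 in the heat shock libraries. Heat shock 3 alone was high, and the other 5 libraries lay between 12.7 and 15.4. In heat shock 3 a transcript of 3 exons and 503 bases (annotated 1717) held 88.6% of the FPKM. Weighted by length it had 14.9, 14.9 and 12.8 in the control libraries and 15.3, 14.98 and 22.6 in the heat shock libraries, where the groups did not overlap, and the log2 difference moved from 0.73 (-0.61 to 2.08) to 0.27 (-0.18 to 0.73). Without control 2 and heat shock 3 the plain difference was 0.12. On the deposited scale the same transcript had 26.5 of the 29.9 FPKM of PSMD14 in heat shock 3, and the annotated transcript had 3.399.

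PSMD8, the highest lid gene, had 47.5, 46.4 and 41.5 in the control libraries and 45.3, 43.3 and 43.2 in the heat shock libraries. PSMD11, the lowest, clamps the lid to the core and had 5.88, 7.14 and 5.4 in the control libraries and 4.88, 5.57 and 6.76 in the heat shock libraries. Both overlapped between the groups, with log2 differences of -0.036 (-0.31 to 0.23) and -0.086 (-0.62 to 0.45). PSMD3, a scaffold of the lid, had 18.2, 23.2 and 16.2 in the control libraries and 15.4, 13.6 and 13.9 in the heat shock libraries. All 3 heat shock libraries lay below all controls, by a log2 difference of -0.39 (-0.83 to 0.055, adjusted p = 0.9104, limma with Benjamini-Hochberg adjustment), which was -0.18 (-0.40 to 0.044) when weighted by length. PSMD6 and PSMD7, further lid subunits of which PSMD7 pairs with PSMD14, ran from 30.9 to 34.0 and from 21.2 to 29.0. Of the 8 lid genes, 3 differences were above 0 and 5 below, with a median of -0.024.

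The 20S core was compared with the 19S within each library, as the median log2(FPKM + 1) of the 14 constitutive core genes minus that of the 17 base and lid genes. This difference was 1.54, 1.27 and 0.822 in controls 1, 2 and 3 and 1.39, 1.91 and 0.817 in heat shock 1, 2 and 3. The median of the core genes was above that of the 19S genes in all 6 libraries, and the control and heat shock groups overlapped. The means were 1.21 ± 0.363 in the controls and 1.37 ± 0.548 after heat shock (SD, n = 3 each), 0.164 apart, which is less than either SD. Against the base alone, the values were 1.29, 0.351 and 0.194 in the control libraries and 1.02, 1.89 and 0.386 in the heat shock libraries. Against the lid alone, they were 1.66, 1.605 and 1.58 and then 1.59, 2.15 and 1.28. The base gave the wider spread, with its lowest values in the 3 libraries where PSMC1 and PSMC3 were high. Weighted by length, the means were 1.40 ± 0.164 and 1.48 ± 0.348. With annotated transcripts alone, the difference between the groups turned to -0.647, from 2.002 ± 0.476 to 1.355 ± 0.2204.

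**Figure D4:**
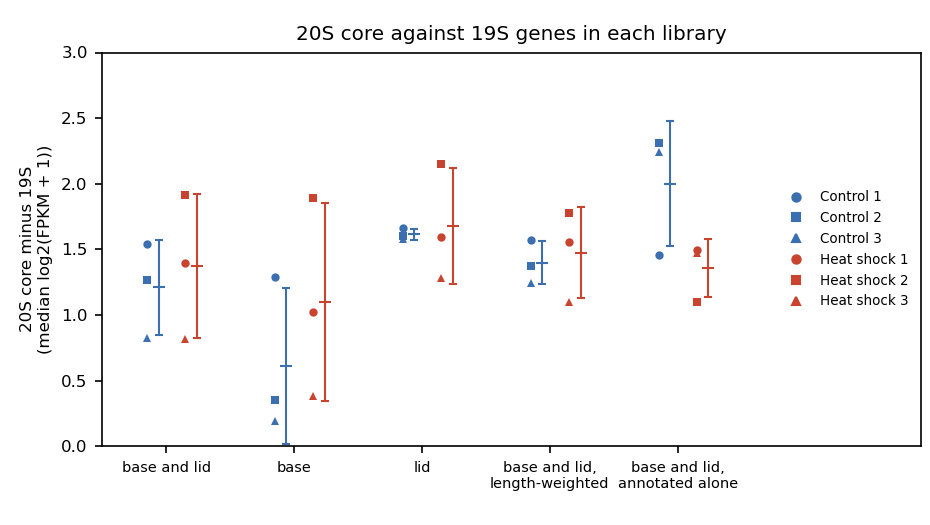
Median log2(FPKM + 1) of the 20S core genes minus that of the 19S genes (vertical axis) in each library, against base and lid together, each alone, and with 2 other ways of valuing a gene. Points are libraries and bars the mean with SD of 3 libraries. The groups overlap by base and lid together (means 1.21 and 1.37), and the order of the groups turns with annotated transcripts alone (2.002 and 1.355).

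Among the chaperones of assembly, the PSMG genes build the alpha ring. PSMG1 had relative levels of 30.8, 24.6 and 30.9 in the control libraries and 27.5, 29.3 and 25 in the heat shock libraries, and its partner PSMG2 had 13.2, 26.1 and 27.1 in the control libraries and 24.4, 4.47 and 13.8 in the heat shock libraries. The other pair had 66.6, 66.3 and 84.9 in the control libraries and 83.1, 77.6 and 66.2 in the heat shock libraries for PSMG3 and 24.8, 22.2 and 18.7 in the control libraries and 19.96, 19.8 and 21.4 in the heat shock libraries for PSMG4. PSMG1, PSMG3 and PSMG4 overlapped between the groups and kept their highest library within 1.33 times their lowest. PSMG2 ranged 6.08-fold and was lowest in heat shock 2. Weighted by length, PSMG2 had 12.5, 13.9 and 12.9 in the control libraries and 12.4, 4.51 and 10.6 in the heat shock libraries, and heat shock 2 was again the low library. All heat shock libraries then lay below the controls, by a log2 difference of -0.57 (-1.46 to 0.32, adjusted p = 0.882, limma with Benjamini-Hochberg adjustment).

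The other chaperones build the base. PSMD9 had relative levels of 6.02, 7.95 and 9.49 in the control libraries and 7.396, 76.9 and 9.05 in the heat shock libraries. Heat shock 2 stood alone, and there a single-exon transcript of 289 bases held 96.4% of the FPKM. The largest difference of the 44 genes upwards, 1.11 (-1.01 to 3.23), was therefore that of 1 library, and weighted by length it was 0.30 (-0.32 to 0.91). In control 1, 1 assembled transcript of 8.08 FPKM was grouped with both PSMD9 and its neighbour CFAP251 and was counted to neither. PSMD10, the oncoprotein gankyrin, had 14.8, 16.6 and 13.6 in the control libraries and 14.9, 15.8 and 21.3 in the heat shock libraries and overlapped between the groups (0.19, -0.28 to 0.65). PSMD5 had 0.0719, 1.001 and 0.225 in the control libraries and 0.0391, 0 and 0.361 in the heat shock libraries, the lowest of the chaperones. It was highest in control 2 and heat shock 3 on this scale. As deposited, control 2 was highest at 0.435 FPKM, and control 3 at 0.216 was above heat shock 3 at 0.176.

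The differences of the 4 activators that can replace the 19S cap were all below 0, with a median of -0.112, and none passed the test. PSME1 had relative levels of 19.7, 31.7 and 19.1 in the control libraries and 20.9, 23 and 20.1 in the heat shock libraries, and PSME2, its partner in an interferon-induced ring, had 26.7, 33.7 and 27.7 in the control libraries and 26.9, 22.7 and 30.9 in the heat shock libraries. PSME3, which forms a nuclear ring, had 15.3, 13.5 and 14.3 in the control libraries and 12.2, 15.7 and 15.4 in the heat shock libraries. These 3 genes overlapped between the groups, with 95% intervals of -0.65 to 0.45, -0.55 to 0.29 and -0.41 to 0.41 on the log2 scale. PSME4, a large single-chain activator of the nucleus, had 2.93, 5.88 and 6.51 in the control libraries and 5.52, 5.03 and 2.02 in the heat shock libraries. Its range of 3.22-fold became 1.58-fold when weighted by length, and heat shock 3 was the lowest library on the plain sum alone. PSMF1, an inhibitor of the core in vitro, had 8.81, 7.91 and 7.13 in the control libraries and 6.4, 6.63 and 8.98 in the heat shock libraries, with a log2 difference of -0.11 (-0.62 to 0.40).

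**Figure D5:**
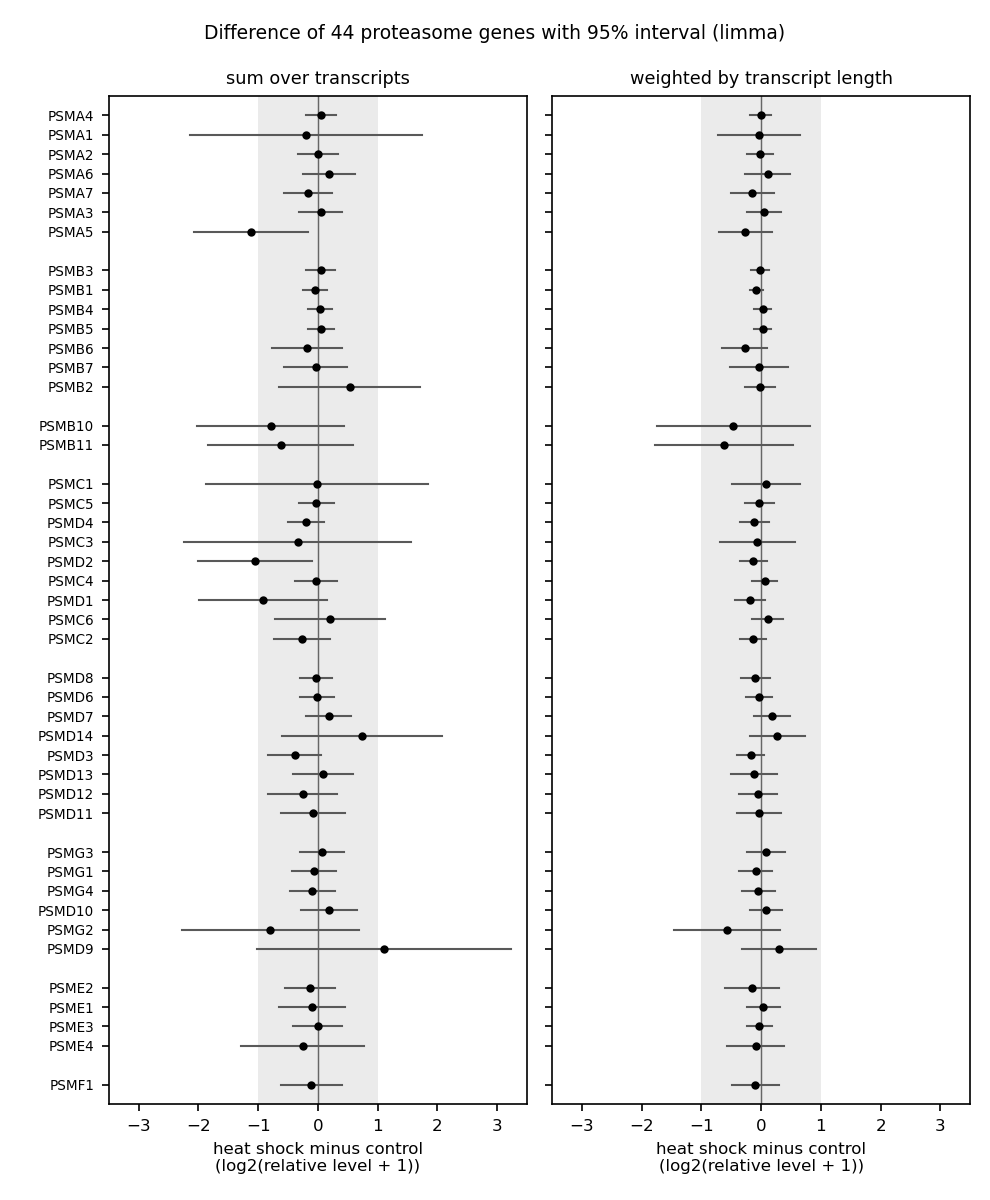
Difference in log2(relative level + 1) between heat shock and control for the 44 tested proteasome genes, with the 95% interval from limma, for the plain sum over transcripts on the left and weighted by transcript length on the right. The grey band is 2-fold in either direction, which holds 30 intervals on the left and 41 on the right.

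Assembled transcripts are set here beside the spread of the whole set, and their part in it was not tested. They were listed for 10, 25 and 22 of the 48 genes in controls 1, 2 and 3 and for 16, 16 and 22 in heat shock 1, 2 and 3. Of the 44 tested genes, 14 differed by more than 2-fold between their highest and lowest library on the plain sum and 4 when weighted by length (PSMB10, PSMB11, PSMD9 and PSMG2, named after their values were seen). The median of that ratio went from 1.55 to 1.28. On the plain sum it was 1.29 for the 6 genes without an assembled transcript and 1.58 for the 38 others. PSMB11, a low gene without an assembled transcript, had the widest range, at 18.6-fold relative to the factor. As deposited it ran from 0.259 to 1.02 FPKM, a range of 3.94-fold. By length-weighted values, 41 of the 44 intervals (93.2%) lay within 2-fold, beside 47.1% of all tested genes, a share not matched for level. None of the 44 was called (limma, Benjamini-Hochberg adjustment), beside 0% of all genes in both directions, and at an unadjusted p under 0.05 there were 0 of 44, beside 0.326% higher and 2.14% lower. Groups without overlap then numbered 1 higher gene (PSMD14, 2.27%, beside 1.4% of all) and 5 lower genes (PSMB1, PSMC2, PSMD1, PSMD3 and PSMG2, 11.4%, beside 5.35%). PSMC2, PSMD1 and PSMD3 were thus below the controls by the plain sum and by the weighted value, by log2 differences of -0.14, -0.19 and -0.18 when weighted. This direction did not hold with annotated transcripts alone. There PSMC2 overlapped between the groups, with a log2 difference of 0.496 (-0.84 to 1.83), and PSMD1 and PSMD3 also had differences above 0. Annotated transcripts alone gave 0 called of 43, beside 0% of all genes, and 15 intervals within 2-fold, beside 22% of all genes.

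Partners of the proteasome outside the PSM names were also measured. Of 25 genes for further subunits, shuttles, the VCP segregase and regulating factors, 24 had a value and 23 were tested relative to the common factor. None was called (limma, Benjamini-Hochberg adjustment), beside 0% of all genes, and 10 were higher (43.5%) and 13 lower at any size, beside 26.3% of all genes higher. As deposited, 0 were called and all 23 tested were higher at any size, beside 73% of all genes. Relative to the factor, 1 of 23 was lower at an unadjusted p under 0.05, where 2.47% of all genes were. That gene was NPLOC4, a cofactor of VCP, with relative levels of 11.4, 9.85 and 10.9 in the control libraries and 8.13, 7.39 and 4.64 in the heat shock libraries and a log2 difference of -0.63 (adjusted p = 0.9104, limma with Benjamini-Hochberg adjustment). POMP, the maturation chaperone of the core, had 34.6, 35.7 and 35.9 in the control libraries and 33.02, 35.01 and 32.9 in the heat shock libraries, which overlapped. NFE2L1, the factor that raises proteasome genes, had 4.28, 5.97 and 3.44 in the control libraries and 3.31, 3.11 and 4.18 in the heat shock libraries, and its groups overlapped. ZFAND5, which binds the proteasome and ubiquitin, had 4.15, 4.495 and 4.59 in the control libraries and 5.31, 5.69 and 5.53 in the heat shock libraries. Its heat shock libraries all lay above its controls, which held for 1 of the 23 partner genes and for 1.8% of all genes, by 0.27 on the log2 scale (-0.20 to 0.73, adjusted p = 0.9104, limma with Benjamini-Hochberg adjustment).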

How the data were processed

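The deposited values are FPKM that the authors computed with Cufflinks for each transcript of each library. Reads had been checked with FastQC and trimmed with Trimmomatic, and TopHat2 had placed them on hg19 with 3 mismatches allowed. Cufflinks was run with the annotation of hg19. The submitters' processing notes give FastQC 0.10.1, Trimmomatic 0.3.0 and Cufflinks 2.0.2, with no version for TopHat2 or Cuffdiff. The authors state no scaling between libraries. Their table of merged loci gave the gene names, and its columns of pooled FPKM, fold changes and p-values and q-values were not used.

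FPKM were summed per gene and library, with symbols through RefSeq for 96.7% of 40803 annotated accessions. Assembled transcripts grouped with several genes were counted to none. Genes averaging 1 FPKM or more were compared, 3 heat shock with 3 control libraries, on log2(FPKM + 1) with limma 3.58.1 in R 4.3.3 (lmFit, eBayes with trend), as deposited and divided by the common factor. On this scale the change of low genes is understated. Benjamini-Hochberg adjustment ran over all tested genes, and the fit was tested on simulated data with the observed spread. There it returned the size of the changes, but called few or none of the changed genes as deposited and more, though not all, relative to the factor, so that a gene not called is not shown to be unchanged. Depth is known in relative terms only, and the intervals cover the spread between these samples. Length-weighted values sum FPKM times exon length and divide by the mean annotated length. No pair of libraries shared a gene above 0 with equal values.

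The proteasome genes, their groups by role, the genes named with values in every library (catalytic subunits and counterparts, ubiquitin receptors and deubiquitinase, chaperones, activators, inhibitor, the highest and lowest gene of each ring, base and lid, and the 3 largest relative differences in each direction), the partner genes and the markers were chosen with earlier results of these data known. ECPAS, 1 of 25 partner genes, was not matched, and 1 further gene of the pathway is not reported here. Alternatives were another pseudocount (0.1), no minimum or 10 FPKM, eBayes without trend, annotated transcripts alone, haplotype contigs left out, TPM and other size factors, the replicate block and leaving out each library. Length-weighted values and leaving out control 2 with heat shock 3 were added after seeing the data.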

Additional observations from a re-analysis of the deposited data

How the results depend on the processing

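No proteasome gene was called as deposited or relative to the common factor in the main comparison, and the count stayed 0 under each alternative pseudocount, minimum, trend, size factor, TPM, transcript choice and left-out library (limma, Benjamini-Hochberg adjustment), except that 25 genes were called as deposited when control 2 and heat shock 3 were left out together, a choice made after seeing the data. In the libraries kept for that count, the common factor was higher in each heat shock library than in each control. Unadjusted, 2 genes passed relative to the factor with all libraries. Leaving out each library in turn gave 0 called, medians of 0.438 to 1.52 as deposited and -0.061 to -0.024 relative to the factor, and core minus 19S differences of -0.10 to 0.443. The median as deposited was 0.811 with all libraries and 1.52 without heat shock 3. The lowest core minus 19S difference was that without heat shock 2. With annotated transcripts alone, the relative median moved to 0.14 and the core minus 19S difference to -0.65, and 25 of 43 relative gene differences moved by more than their spread; with the annotated transcript alone a gene loses the FPKM of its assembled transcripts. Weighting by length moved 4 of 44. Whether the replicate numbers pair the libraries is not settled. The correlations of same-numbered deviations were 0.026, -0.264 and -0.324. They cannot decide it, because control 2 and heat shock 3 stood apart from the rest and gave the largest correlation, 0.345. The fit with a replicate block called 0 proteasome genes on either scale. Depth is known only in relative terms, so no count floor can be given, and a gene listed at 0 is not shown to be absent.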
